A study of Mus musculus with 4 samples.

Results

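The variable (V) and joining (J) segments of the T cell receptor (TCR) beta chain were described in CD4 T cells sorted from mouse lung carrying TC1 tumors and from normal lung. Members were every beta V label other than TRBV19 and every beta J label found on productive beta contigs, that is, on assembled transcripts that can encode a full chain. There were 21 V labels and 12 J labels, 33 of the 168 V and J labels carried by all productive alpha and beta chains of the series. TRBV19 was kept in the totals and is not described. Each distinct CDR3 nucleotide sequence was counted once per class of cells, however many cells carried it, so that a large clone weighs no more than a small one.

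All mice were C57BL/6. The tumor group received TC1 cells, a transplantable mouse lung tumor line, through the tail vein and was killed 3 weeks later, and the normal group consisted of age-matched normal mice. Lung lymphocytes were freed by enzyme digestion, passed through a Percoll density step and a CD4 isolation kit, and sorted as live CD4-positive cells before droplet capture aimed at 10000 cells. Each tissue gave 1 gene expression library and 1 TCR library from the same suspension. The labels do not give the number of mice in a suspension, so each difference below is between libraries or between cells of 1 library and has no replicate check. No test was made for this reason. Intervals are 95% intervals, Clopper-Pearson for shares and exact for ratios, and they cover counting error only.

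A beta chain is assembled in the thymus, where the RAG recombinase joins a D segment to a J segment and then a V segment to that product. Bases are trimmed from the ends and added without a template by terminal transferase, encoded by Dntt, and the joined region is read as CDR3, the loop that mostly contacts the peptide. The remaining V-encoded loops mostly contact the MHC molecule. Mouse beta J segments lie in the TRBJ1 and TRBJ2 clusters, each preceded by its own D segment and followed by its own constant gene. Regulatory T cells (Tregs) are CD4 T cells that depend on the transcription factor Foxp3 and restrain immune responses.

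Cells were divided by Foxp3, with at least 1 UMI or with 0 UMIs, where a UMI marks 1 captured molecule. The tumor library gave 1147 Foxp3-positive cells with 748 distinct beta sequences and 5988 Foxp3-negative cells with 5299. The normal library gave 206 Foxp3-positive cells with 183 distinct sequences and 6876 Foxp3-negative cells with 5983. The gene expression libraries held 35633167 UMIs in the tumor and 31697386 in the normal library, and median depth per cell was between 3905 and 4725 UMIs over the 4 classes. Assembled contigs had 131798 UMIs in the tumor and 127035 in the normal TCR library. A beta chain was found in 83.2% of tumor Foxp3-positive cells against 89.8% to 90.8% in the other classes. In the tumor Foxp3-positive class 121 of 748 sequences were in at least 2 cells, against 62 of 5299 in tumor Foxp3-negative cells. Of 10 Treg markers, 9 reached 100 UMIs. Foxp3 is at 0 in the negative classes by the rule, and the other 8 were at least 1.5-fold higher in Foxp3-positive cells of both libraries, where 36.1% of genes in the tumor and 22.5% in the normal library passed that fold. Foxp3-negative cells still held a summed Treg marker level of 741 CPM (UMIs per 1000000 UMIs of the class) in the tumor and 417 CPM in the normal library, against 7811 and 3202 CPM in the positive cells. Summed epithelial markers were 36.9 CPM in tumor Foxp3-positive and 6.56 CPM in tumor Foxp3-negative cells, of which Epcam gave 197 and 155 UMIs while Sftpc was at 1 UMI or 0 in each class. Summed B cell markers were 20.9 and 2.13 CPM with Ms4a1 at 0, and the part of either list in the results was not tested. The libraries shared 86 cell barcodes, and no shared barcode carried the same beta sequence in both.

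CDR3 opens with bases of the V segment and closes with bases of the J segment. Several V labels had the same start, as TRBV3 and TRBV10, TRBV13-1 and TRBV13-3, and TRBV12-1 and TRBV12-2 did. The shared start of a V label, and the shared end of a J label, was read as the bases that at least 75% of its sequences had in common at each position. Below are the starts of the 3 V labels whose naming affects the results, with capitals at the positions where they differ from each other, and the ends of the 2 most contrasting J segments together with that of the most used one, with capitals on the last CDR3 codon, which encodes the conserved phenylalanine.
TRBV12-2: tgtgccagcTCtC
TRBV13-2: tgtgccagcGGtG
TRBV12-2+TRBV13-2: tgtgccagcGGtG
TRBJ2-2: caccgggcagctctacTTT
TRBJ1-1: cacagaagtcttcTTT
TRBJ2-7: atgaacagtacTTC
The joint label TRBV12-2+TRBV13-2 was given by the assembler to contigs that it placed under both genes. Its shared start was identical to that of TRBV13-2 and differed from TRBV12-2 at 3 positions.

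Labels were checked against the gene expression of the same cells, where the transcript of the V segment is counted separately. In 19 of 21 labels of each library the leading Trbv gene was the label's own. Cells with the joint label were led by Trbv13-2, which gave 88.8% of their Trbv UMIs in the tumor and 87.0% in the normal library. Cells labelled TRBV10 were led by Trbv4, with 84.0% and 84.6%. RefSeq (GRCm38.p6) annotates Trbv10 (chromosome 6, 41091935 to 41092228) as a pseudogene and Trbv4 lies at 41059443 to 41059886, so TRBV10 is used here only as the name of a label. Trbv29 is annotated as a pseudogene as well, but cells labelled TRBV29 were led by Trbv29, with 94.8% in the tumor and 94.4% in the normal library. All 33 labels matched that annotation, which lists 22 functional and 13 pseudogene beta V segments, all members being on chromosome 6. The assembler called no D segment in either library.

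Usage was steep and had the same order at its top in both libraries. TRBV3 (Trbv3, 41048394 to 41048824) led in both, with 10.4% of distinct tumor sequences and 10.2% of normal ones. TRBV31 (Trbv31, 41557693 to 41558371), which lies beyond the J clusters, followed with 8.64% and 9.65%, and TRBV5 came next with 7.56% and 7.75%. TRBV1 with 7.18% and 6.74%, and the joint label with 6.98% and 7.48%, held the following places in reversed order. TRBV30 was least used of the V labels in both libraries, at 0.244% of normal sequences. Among J segments TRBJ2-7 led, with 20.1% and 17.6% in tumor Foxp3-positive and negative cells and 18.6% and 16.8% in the normal classes. TRBJ2-5 came next and TRBJ1-5 was last in each of the 4 classes. With TRBV19 left out, TRBJ2-5 led in tumor Foxp3-positive cells with 17.9%, ahead of TRBJ2-7 with 15.8%. TRBJ1-1 followed in each library, with 10.9% of normal sequences. The TRBJ2 cluster held 66.8%, 64.7%, 68.3% and 64.6% in the same order of classes, and tumor Foxp3-positive cells differed from Foxp3-negative ones by 2.13 percentage points (-1.55 to 5.66).

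**Figure D1:**
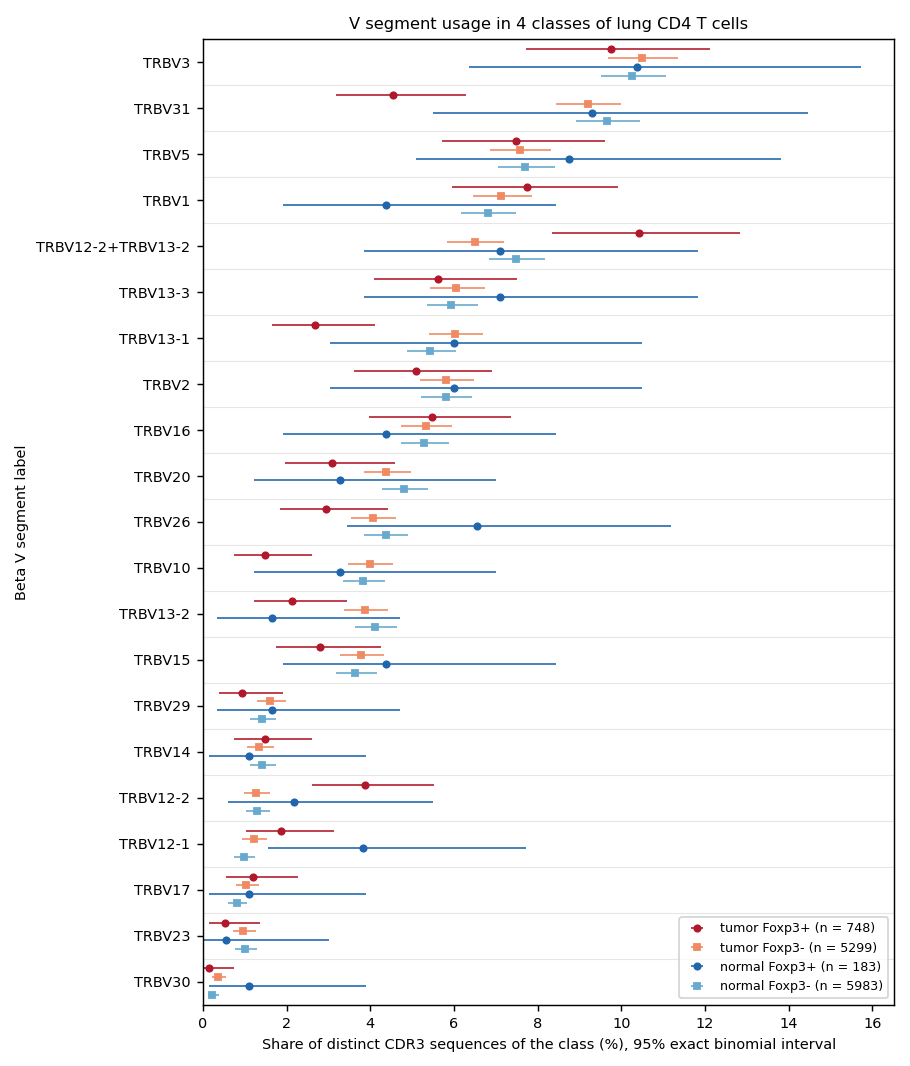
Share of distinct CDR3 nucleotide sequences (percent, horizontal axis) for each described V label (vertical axis) in the 4 classes, with points for shares and bars for 95% Clopper-Pearson intervals. Tumor and normal Foxp3-negative points lie close together for every label, while tumor Foxp3-positive points stand apart for TRBV12-2 (3.88% against 1.26%) and TRBV31 (4.55% against 9.19%).

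**Figure D2:**
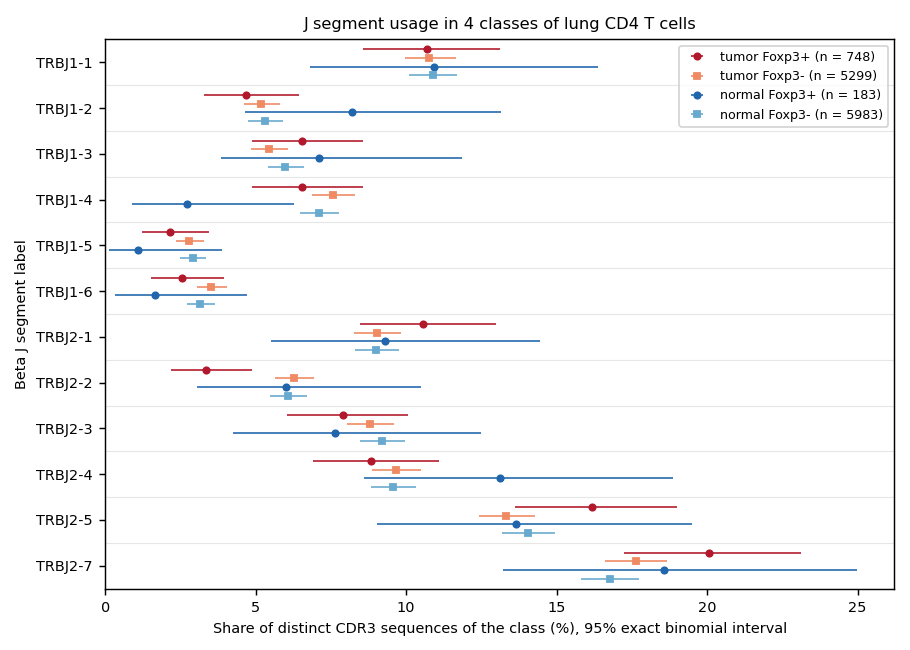
Share of distinct CDR3 nucleotide sequences (percent) for each J segment in the 4 classes, with points for shares and bars for 95% Clopper-Pearson intervals. TRBJ2-7 leads in each class, and TRBJ2-2 is at 3.34% in tumor Foxp3-positive cells against 6.27% in tumor Foxp3-negative cells. The shares include TRBV19 sequences, without which TRBJ2-5 leads in tumor Foxp3-positive cells.

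In Foxp3-negative cells the tumor and normal libraries used V and J segments almost alike. A segment was compared when it had at least 20 distinct sequences in the class with the higher share, and it was called when its share differed at least 1.5-fold. Of 20 V labels compared, 0 were called (0%), and the ratios of tumor over normal lay between 0.867 and 1.29. The lowest was that of the joint label, with 6.49% against 7.49% and an interval from 0.751 to 1. TRBV17 had the highest, with 1.04% against 0.802% (0.862 to 1.95). Read from gene expression, 1 segment passed the fold, Trbv5, which dominated 1.42% of tumor and 2.77% of normal Foxp3-negative cells (0.515, 0.368 to 0.712), while the label TRBV5 held 7.57% and 7.71% of sequences. Cells labelled TRBV5 had the fewest Trbv UMIs of all labels, with a mean of 1.90 in the tumor and 2.57 in the normal library. That is under the minimum of 3 for this reading, and the part of detection in the ratio was not tested. Of 12 J segments, 0 were called (0%), with ratios from 0.908 to 1.12. TRBV3 with 10.5% and 10.3%, TRBV31 with 9.19% and 9.66%, and TRBJ1-1 with 10.8% and 10.9% show how near the classes were.

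Within the tumor library Foxp3-positive cells used several V segments differently from Foxp3-negative cells. Of 17 V labels compared, 8 were called (47.1%), 2 of them higher and 6 lower in Foxp3-positive cells, and for 6 of the 8 the interval of the ratio did not include 1. TRBV12-2 and the joint label were the 2 higher ones, and TRBV10, TRBV13-1, TRBV31, TRBV13-2, TRBV23 and TRBV29 the lower ones.

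TRBV12-2 (Trbv12-2, 41118864 to 41119364) was on 29 of 748 distinct sequences of tumor Foxp3-positive cells (3.88%, 2.61 to 5.52). The other classes gave 67 sequences (1.26%, 0.981 to 1.60) in tumor Foxp3-negative cells, 4 (2.19%, 0.599 to 5.50) in normal Foxp3-positive cells and 77 (1.29%, 1.02 to 1.61) in normal Foxp3-negative cells. The tumor Foxp3-positive share was thus the highest, both Foxp3-negative classes were alike, and the normal Foxp3-positive class is too small to place. Its ratio to tumor Foxp3-negative cells was 3.07 (1.91 to 4.81). The 29 sequences encoded 29 different proteins, used 9 J segments and came from 34 cells, with a largest clone of 4 cells. Among the 627 tumor Foxp3-positive sequences seen in a single cell TRBV12-2 held 4.31%, and the ratio of that share to the Foxp3-negative share was 3.41 (2.09 to 5.398), while among the 121 sequences seen in at least 2 cells it held 1.65% (0.201 to 5.84). Read from gene expression instead, 644 tumor Foxp3-positive and 3865 tumor Foxp3-negative cells had a dominant Trbv gene. It was Trbv12-2 in 4.35% and 1.32% of them, a ratio of 3.29 (2.0 to 5.32). TRBV12-1, the other member of its family, held 1.87%, 1.21%, 3.83% and 0.969% in tumor Foxp3-positive, tumor Foxp3-negative, normal Foxp3-positive and normal Foxp3-negative cells. The TRBV12 family as a whole was 2.33-fold higher in Foxp3-positive cells in the tumor (1.61 to 3.30) and 2.66-fold higher in the normal library (1.30 to 4.92).

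TRBV31 was on 34 tumor Foxp3-positive sequences (4.55%, 3.17 to 6.29). It held 9.19% (8.43 to 10.0) in tumor Foxp3-negative, 9.29% (5.51 to 14.5) in normal Foxp3-positive and 9.66% (8.92 to 10.4) in normal Foxp3-negative cells. These 3 intervals overlapped one another. The tumor Foxp3-positive share was the lowest, and its interval lay below those of both Foxp3-negative classes and overlapped that of normal Foxp3-positive cells. Its ratio to tumor Foxp3-negative cells was 0.495 (0.339 to 0.701), and 0.489 (0.266 to 0.934) to normal Foxp3-positive cells, a comparison that the minimum of 20 sequences in the higher class left out. In gene expression the share of cells dominated by Trbv31 gave a ratio of 0.347 (0.217 to 0.528) between the tumor classes.

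TRBV13-1 (Trbv13-1, 41116036 to 41116468) also had its lowest share in tumor Foxp3-positive cells, with 2.67% (1.64 to 4.10) against 6.02%, 6.01% and 5.43% in tumor Foxp3-negative, normal Foxp3-positive and normal Foxp3-negative cells. Its ratio between the tumor classes was 0.444 (0.268 to 0.698), and 0.688, inside the fold, with no cell filter or with cells of 2 beta chains kept. The label TRBV10, whose cells express Trbv4, held 1.47%, 3.98%, 3.28% and 3.83% in the same order of classes, with a ratio of 0.369 (0.182 to 0.674) between the tumor classes. Cells dominated by Trbv4 were 0.311% and 2.43% of the 644 and 3865 cells with a dominant Trbv gene in the tumor classes. These were 2 and 94 cells, which gives a ratio of 0.128 (0.0152 to 0.474). Both labels were again low in tumor Foxp3-positive cells. TRBV29 (ratio 0.583, 0.228 to 1.26) and TRBV23 (ratio 0.556, 0.146 to 1.51) passed the fold on 7 and 4 tumor Foxp3-positive sequences, with intervals that include 1. They came inside the fold under some settings, TRBV29 at 0.852 with no cell filter and TRBV23 at 0.704 with Foxp3 read at 2 UMIs.

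TRBV13-2 (Trbv13-2, 41121396 to 41121832) and the joint label moved in opposite directions. TRBV13-2 held 2.14% of tumor Foxp3-positive and 3.87% of tumor Foxp3-negative sequences, a ratio of 0.553 (0.310 to 0.920). The joint label held 10.4% and 6.49%, a ratio of 1.61 (1.24 to 2.06). Since both labels share their CDR3 start and their leading Trbv gene, they were also summed. Together they held 12.6%, 10.4%, 8.74% and 11.6% in tumor Foxp3-positive, tumor Foxp3-negative, normal Foxp3-positive and normal Foxp3-negative cells, and their ratio of 1.21 between the tumor classes (0.964 to 1.51) did not pass the fold. Cells dominated by Trbv13-2 in gene expression were 11.5% and 9.37% of those with a dominant Trbv gene in the tumor classes (1.23, 0.942 to 1.58). The opposite calls of these 2 labels are therefore not seen once the labels are joined. The whole TRBV13 family with the joint label held 20.9% and 22.4%.

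**Figure D3:**
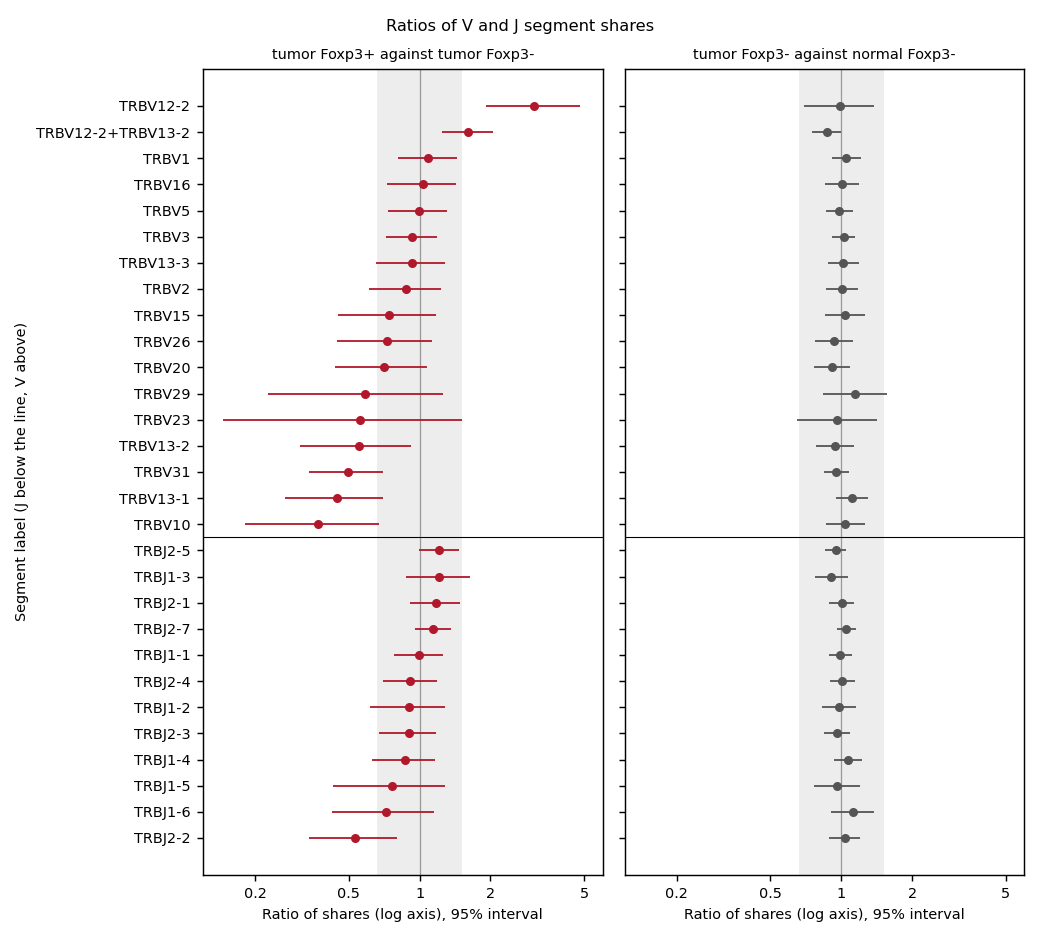
Ratio of usage shares (horizontal log axis) for V labels above the line and J segments below it, tumor Foxp3-positive over Foxp3-negative cells on the left and tumor over normal Foxp3-negative cells on the right, with points for ratios, bars for exact 95% intervals and a grey band for ratios within 1.5-fold, for the 17 V labels and 12 J segments compared between the tumor classes. On the left TRBV12-2 reaches 3.07 and TRBV10 falls to 0.369, while each ratio on the right lies inside the band.

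Shares within a class depend on one another through the total, which includes TRBV19. With TRBV19 left out, 608 of 748 sequences remained in tumor Foxp3-positive, 4871 of 5299 in tumor Foxp3-negative, 172 of 183 in normal Foxp3-positive and 5516 of 5983 in normal Foxp3-negative cells, and the same 8 V labels were called. TRBV12-2 then had a ratio of 3.47 (2.16 to 5.44), the joint label 1.82 (1.40 to 2.33), TRBV31 0.559 (0.383 to 0.792), TRBV13-1 0.502 (0.303 to 0.789) and TRBV10 0.418 (0.205 to 0.763). TRBV13-2 had 0.625, and its interval then reached 1.04.

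J segments differed less between the tumor classes than V segments. Of 12 compared, 1 was called (8.33%). TRBJ2-2 (Trbj2-2, 41542957 to 41543007) was on 25 tumor Foxp3-positive sequences (3.34%, 2.17 to 4.89) and held 6.27%, 6.01% and 6.07% in tumor Foxp3-negative, normal Foxp3-positive and normal Foxp3-negative cells. The ratio to tumor Foxp3-negative cells was 0.533 (0.340 to 0.802), and 0.574 (0.355 to 0.885) with TRBV19 left out. To normal Foxp3-positive cells it was 0.556 (0.264 to 1.25), an interval that includes 1. TRBJ2-7, TRBJ2-5 and TRBJ1-1 together held 46.9% of tumor Foxp3-positive and 41.7% of tumor Foxp3-negative sequences, a difference of 5.20 percentage points (1.41 to 9.02). These shares include TRBV19 sequences, and the summed share without them was not computed. With TRBV19 left out, TRBJ2-7 held 15.8% and 17.6% in the tumor classes (0.900, 0.721 to 1.11), against a ratio of 1.14 with it. TRBJ2-5 then held 17.9% and 13.7% (1.31, 1.06 to 1.60), and TRBJ1-1 10.5% and 10.6%. TRBJ2-1 (Trbj2-1, 41542754 to 41542803), named after its values were seen, held 19.01% (12.4 to 27.1) of the 121 tumor Foxp3-positive sequences in at least 2 cells and 8.93% of the 627 in 1 cell. Most of its 23 sequences in at least 2 cells were those of TRBV3 with TRBJ2-1 described below. The share without that pair was not computed.

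Normal Foxp3-positive cells gave 183 sequences, where 3 sequences are 1.64%, and the comparisons that use them are coarse. A segment higher in this class needs 20 of the 183 sequences to be compared, so that the minimum largely fixes the direction of the calls, and nothing is read from it. Within the normal library 9 V labels could be compared and 3 were called (33.3%). These were TRBV13-2 with 1.64% against 4.11% (0.399, 0.0817 to 1.18, and 0.754, short of the fold, with the joint label added), TRBV23 with 0.546% against 1.00% (0.545, 0.0136 to 3.15) and TRBV1 with 4.37% against 6.80% (0.643, 0.276 to 1.28). None of these 3 intervals excludes 1. Of 9 J segments compared, 3 were called (33.3%). TRBJ1-4 held 2.73% against 7.10% (0.385, 0.124 to 0.905), TRBJ1-5 1.09% against 2.91% (0.376, 0.0452 to 1.38) and TRBJ1-6 1.64% against 3.16% (0.519, 0.106 to 1.54). Among these 3 J segments the interval stayed below 1 for TRBJ1-4 only. The minimum left out TRBV12-1, at 3.83% against 0.969% (3.95, 1.52 to 8.66), and TRBJ1-2 (1.54, 0.853 to 2.58).

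Between Foxp3-positive cells of the tumor and normal libraries 4 V labels could be compared and 2 were called (50%). TRBV1 (Trbv1, 40891296 to 40891885) held 7.75% against 4.37% (1.77, 0.843 to 4.30) and TRBV12-2 held 3.88% against 2.19% (1.77, 0.623 to 6.94). Of 7 J segments, 1 was called (14.3%), TRBJ1-4, with 6.55% against 2.73% (2.40, 0.961 to 7.71). Each of these 3 intervals includes 1, so the differences were not larger than counting error. TRBV1 fell to 1.38 and TRBV12-2 to 1.33 with no cell filter. The minimum left out TRBV26 (0.449, 0.213 to 0.994), as it did TRBV31 above.

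Pairing of V and J was close to the product of their shares in both Foxp3-negative classes. The bias-corrected Cramér's V, which is 0 for independent segments and 1 for a fixed partner, was 0.0605 in tumor and 0.0526 in normal Foxp3-negative cells over the described segments, 0.112 in tumor Foxp3-positive cells and 0 in normal Foxp3-positive cells. The bias correction sets negative values to 0. With few sequences per possible pair, the 0 of normal Foxp3-positive cells cannot be read as independence. Of 252 possible pairs 243 were seen in tumor and 240 in normal Foxp3-negative cells, 172 in tumor and 109 in normal Foxp3-positive cells. The last 2 counts are limited by the 608 and 172 described sequences of these classes. Leaving TRBV3 out brought the tumor Foxp3-positive value to 0.0816.

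**Figure D4:**
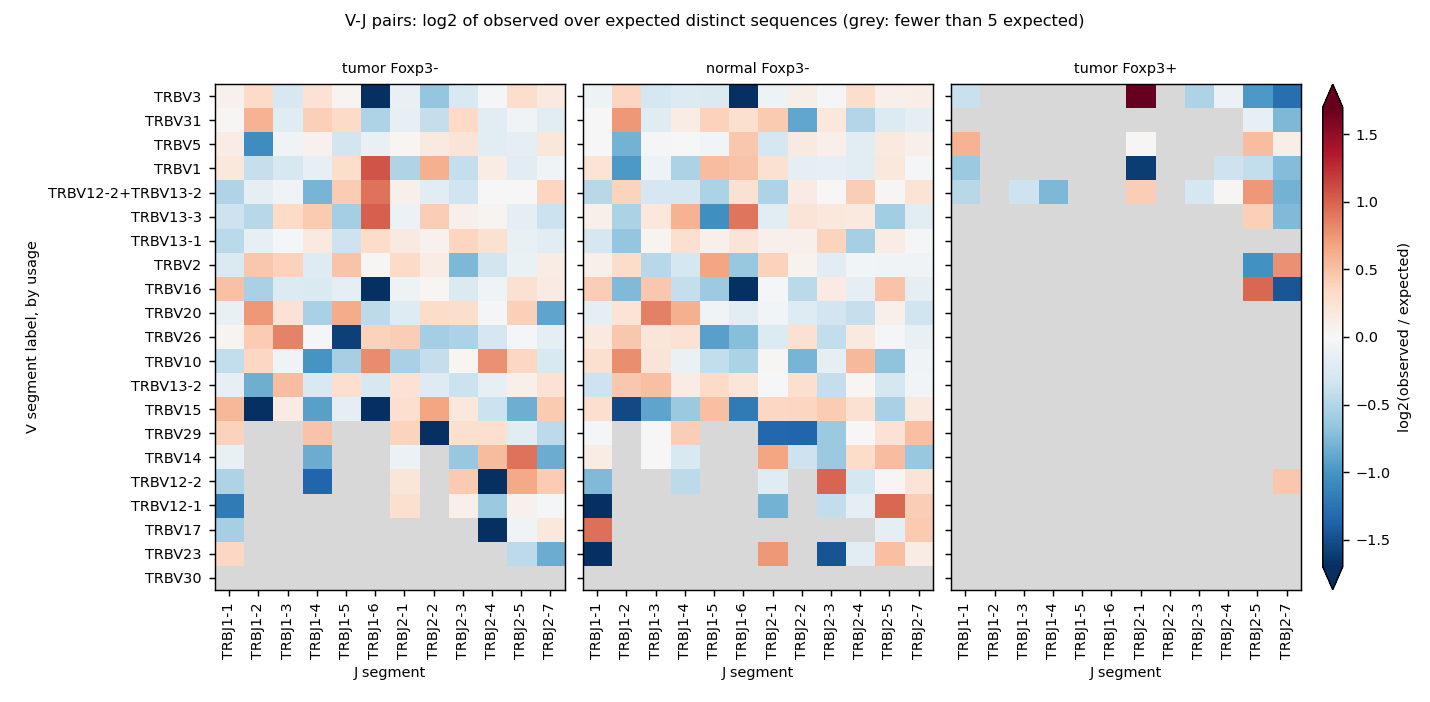
Log2 of observed over expected distinct sequences (colour, darkest shades also for values beyond the scale) for each V label (rows) and J segment (columns) in tumor Foxp3-negative, normal Foxp3-negative and tumor Foxp3-positive cells, with pairs of fewer than 5 expected sequences in grey. The darkest excess in the tumor Foxp3-positive panel is TRBV3 with TRBJ2-1, at 3.24 times expectation, which is pale in both other panels at 0.915 and 0.940.

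A few pairs lay past 1.5-fold of expectation in Foxp3-negative cells. At these counts counting error alone takes some pairs past the fold, and how many was not computed. Several ratios named below have an interval that includes 1 in the tumor or the normal library. Among pairs with at least 20 expected sequences 9 of 96 passed 1.5-fold in the tumor library (9.38%) and 8 of 112 in the normal library (7.14%). TRBV31 with TRBJ1-2 was in excess in both, with 38 sequences against 25.3 expected (1.504, 1.06 to 2.06) and 51 against 30.7 (1.66, 1.24 to 2.18). TRBV10 with TRBJ2-4 stood at 1.72 and 1.46. TRBV5 with TRBJ1-2 was short in both, at 0.481 (0.230 to 0.884) and 0.571 (0.312 to 0.959). TRBV16 with TRBJ1-1 (1.42 and 1.34), TRBV13-3 with TRBJ1-4 (1.36 and 1.51), TRBV15 with TRBJ2-5 (0.563 and 0.685) and TRBV20 with TRBJ2-7 (0.538 and 0.790) also lay on the same side in the tumor and normal libraries. On opposite sides were TRBV1 with TRBJ2-2 (1.52 and 0.891), TRBV20 with TRBJ1-4 (0.684 and 1.52) and TRBV10 with TRBJ2-5 (1.28 and 0.621). Over the 96 pairs the log2 ratios of the 2 libraries had a Pearson correlation of 0.48 across pairs, which are not independent since they share margins, and 68 pairs (70.8%) lay on the same side of 1. Below the minimum of 20 expected sequences, and chosen after its values were seen, TRBV3 with TRBJ1-6 gave 3 sequences against 19.6 expected in tumor and 5 against 19.4 in normal Foxp3-negative cells.

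In tumor Foxp3-positive cells, where the minimum was set to 5 expected sequences, 16 of 32 pairs passed 1.5-fold (50%), 5 in excess and 11 short. With fewer expected sequences counting error alone takes more pairs past the fold. This share therefore cannot be set beside those of the Foxp3-negative classes, and some of these pairs have intervals that include 1. TRBV3 with TRBJ2-1 was furthest from expectation among the 5 in excess, with 25 sequences against 7.71 (3.24, 2.10 to 4.79). The same pair gave 46 against 50.3 in tumor Foxp3-negative cells, 52 against 55.3 in normal Foxp3-negative cells and 5 against 1.77 (2.83, 0.920 to 6.61) in normal Foxp3-positive cells. It was thus at expectation in the large Foxp3-negative classes, and the normal Foxp3-positive class holds too few sequences to place it. TRBV16 with TRBJ2-5 followed with 13 against 6.63 (1.96, 1.04 to 3.35), TRBV2 with TRBJ2-7 with 13 against 7.62 (1.71, 0.908 to 2.92) and the joint label with TRBJ2-5 with 21 against 12.6 (1.66, 1.03 to 2.54). TRBV3 with TRBJ2-7 was short, with 6 against 14.6 (0.410, 0.150 to 0.892). The expected counts use J shares that include TRBV19. In this class TRBJ2-7 held 20.1% with TRBV19 and 15.8% without it, and TRBJ2-5 16.2% and 17.9%. Expectations are therefore higher for pairs with TRBJ2-7, and lower for pairs with TRBJ2-5, than they would be without TRBV19. Apart from TRBV3 with TRBJ2-1, the pairs were not recomputed without it. Just under the minimum, and chosen after its values were seen, TRBV1 with TRBJ2-3 gave 16 against 4.57 (3.497, 1.999 to 5.68), and its ratio was 0.752 in tumor and 0.909 in normal Foxp3-negative cells.

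The 25 TRBV3 and TRBJ2-1 sequences of tumor Foxp3-positive cells resembled each other in the middle of CDR3 as well. The most frequent 8-base word between their shared V start and J end was GACTGGGG, which was chosen after the sequences were seen and is a description of them. The D segment lies in this stretch and the assembler called none. Whether the word comes from a germline D segment was not tested. The 7 shown are the clones of at least 4 cells and those that encode the same protein as one of them, with one that lacks the word for contrast, and capitals mark the word.
clone A, 10 cells: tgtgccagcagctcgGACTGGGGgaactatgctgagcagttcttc
clone B, 4 cells: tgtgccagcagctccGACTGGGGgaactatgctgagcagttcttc
clone C, 1 cell: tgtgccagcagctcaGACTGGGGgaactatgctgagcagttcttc
clone D, 6 cells: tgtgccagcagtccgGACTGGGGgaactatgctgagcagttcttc
clone E, 2 cells: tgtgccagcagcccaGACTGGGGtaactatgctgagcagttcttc
clone F, 4 cells: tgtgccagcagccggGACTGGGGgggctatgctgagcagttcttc
clone G, 3 cells: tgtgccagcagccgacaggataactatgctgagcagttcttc
Clones A, B and C encode 1 protein through synonymous codons, and clones D and E encode another. Clones B and C each differ from the larger clone A at 1 base, which an uncorrected read error could also make. Their alpha V segments were TRAV15-2-DV6-2 and TRAV6-6 for clone B and TRAV12-3 for clone C.

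The word was in 19 of the 25 sequences (76.0%, 54.9 to 90.6), which came from 47 of 57 cells, and 18 of the 25 were 15 codons long. For the same pair it was in 6 of 46 tumor Foxp3-negative sequences (13.0%, 4.94 to 26.3), 7 of 52 normal Foxp3-negative sequences (13.5%, 5.59 to 25.8) and 0 of 5 normal Foxp3-positive ones, which allows up to 60.0%. TRBV3 with other J segments in tumor Foxp3-positive cells had it in 3 of 48 (6.25%). The word was chosen in the tumor Foxp3-positive set of the pair, so its share there is a description. Over all described V labels it was in 12.5%, 11.4%, 8.72% and 10.2% of sequences in tumor Foxp3-positive, tumor Foxp3-negative, normal Foxp3-positive and normal Foxp3-negative cells. It was in 18.8%, 17.6%, 12.7% and 15.8% of those with a TRBJ2 segment, and in 0 of 203, 0 of 1716, 0 of 54 and 1 of 1943 of those with a TRBJ1 segment, where the counts of 0 allow up to 1.48%, 0.175% and 5.56%. On the reverse strand it was in 0 of the 608 described tumor Foxp3-positive sequences.

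The alpha chains paired with these beta chains repeated as well. TRAV6-6 was on 9 of 27 distinct alpha-beta receptors with the word (33.3%, 16.5 to 54.0), among them clone A in all 10 of its cells and clone F in all 4. TRAV6-6 was chosen after these alpha chains were seen, so its share is a description. The 27 receptors came from 19 beta sequences, and a sequence found with several alpha chains counts several times (3 for clone B). They are therefore not independent, which the interval does not allow for. TRAV6-6 was on 0 of 8 receptors of the pair without the word. Of the other described tumor Foxp3-positive receptors 32 of 638 (5.02%) carried it, and 167 of 4835 (3.45%) of the tumor Foxp3-negative ones. Clone A was also in 1 tumor Foxp3-negative cell, and it was in 0 cells of the normal library.

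Different nucleotide sequences with the same V, J and protein held their highest share in tumor Foxp3-positive cells. They made up 23 of 608 described sequences there (3.78%, 2.41 to 5.62), 11 of them with TRBV3, against 103 of 4871 (2.11%, 1.73 to 2.56) in tumor Foxp3-negative cells, 0 of 172 in normal Foxp3-positive cells, which allows up to 1.74%, and 100 of 5516 (1.81%, 1.48 to 2.20) in normal Foxp3-negative cells. Since larger classes offer more pairs of sequences, same-protein pairs were also counted per 1000000 pairs of sequences, which gave 92.1, 4.47, 0 and 3.48 in the same order. The intervals of the shares in the tumor classes overlap, and on the second measure tumor Foxp3-positive cells stood above both Foxp3-negative classes. Normal Foxp3-positive cells, with 0 of 14706 pairs, cannot be placed. Sequences 1 base from a larger clone, which an uncorrected read error could make, numbered 7 of 608, 7 of 4871, 0 of 172 and 10 of 5516. They were thus a larger share in tumor Foxp3-positive cells, and the values above are not given without them.

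CDR3 length was compared over the same sequences. The mean was 13.7 ± 1.27 codons (SD over 748 sequences) in tumor Foxp3-positive, 13.8 ± 1.33 in tumor Foxp3-negative, 13.8 ± 1.34 in normal Foxp3-positive and 13.8 ± 1.32 in normal Foxp3-negative cells, and the median was 14 in each. The mean of tumor Foxp3-positive minus that of tumor Foxp3-negative sequences was -0.142 codons, and -0.111 when both were set to the same makeup of V-J pairs, with no test. Sequences of at least 16 codons were 5.61% (4.08 to 7.51) of the tumor Foxp3-positive class and 8.87% (8.12 to 9.67), 9.84% (5.93 to 15.1) and 8.46% (7.76 to 9.19) of the others. The long sequences were thus fewer in tumor Foxp3-positive cells, and the share there was 6.41% (4.60 to 8.66) against 8.95% with TRBV19 left out. Bases between the shared V and J ends, which hold the D segment and added bases, averaged 12.7, 13.0, 13.1 and 12.9.

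**Figure D5:**
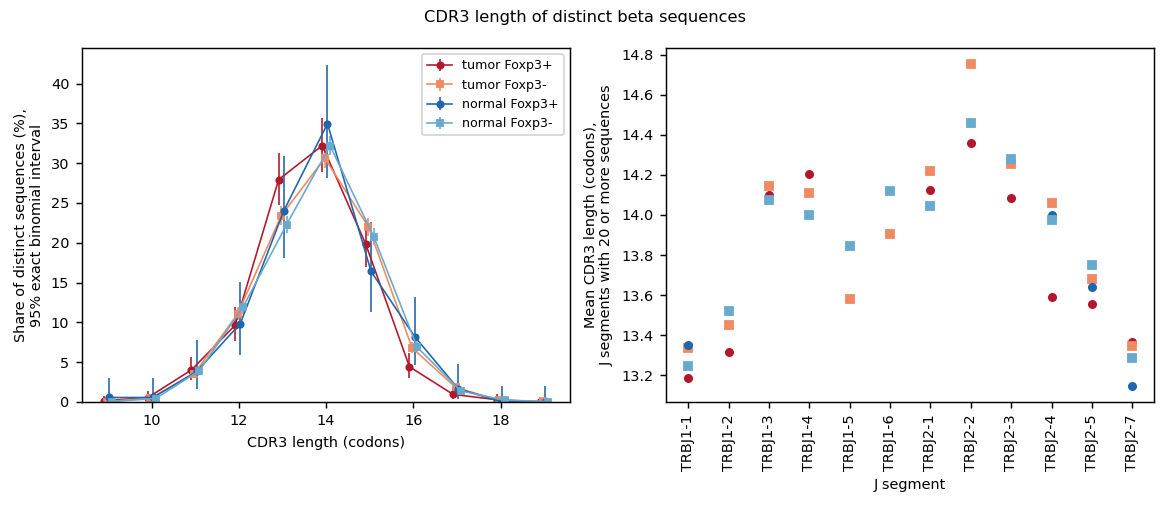
On the left, percent of distinct sequences (vertical axis) at each CDR3 length in codons for the 4 classes, with bars for 95% exact binomial intervals; on the right, mean length for each J segment with at least 20 sequences in a class. The 4 curves peak at 14 codons, and on the right TRBJ1-1 is among the shortest (13.2 to 13.4) and TRBJ2-2 the longest (14.4 to 14.8 in the classes shown).

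Length followed the segments more than the classes. TRBJ1-1 sequences averaged 13.2, 13.3, 13.4 and 13.2 codons in tumor Foxp3-positive, tumor Foxp3-negative, normal Foxp3-positive and normal Foxp3-negative cells, and TRBJ2-2 sequences, whose shared end is 19 bases against 16, averaged 14.4, 14.8, 14.1 and 14.5. Among V labels TRBV20 averaged 13.3, 13.1, 13.2 and 13.1, and TRBV5 13.98, 14.6, 14.5 and 14.5. TRBV12-2 sequences averaged 14.3 ± 0.891 codons (SD, 29 sequences) in tumor Foxp3-positive and 13.6 ± 1.28 (SD, 67 sequences) in tumor Foxp3-negative cells. The share of sequences with a phenylalanine, isoleucine, leucine, methionine, valine, tryptophan or tyrosine at residue 6 or 7 of CDR3, a feature linked to self-reactivity in published work, was 24.3%, 24.0%, 28.4% and 23.5%, and the intervals of all 4 classes overlapped.

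Both libraries held 51 sequences in common among kept cells. These were shorter, at 13.0 ± 1.11 codons (SD) against 13.8 ± 1.32 for the 12068 found in 1 library, and had 10.0 ± 3.31 bases between the shared V and J ends against 13.0 ± 3.62. Examples with few such bases are given, with capitals on the shared J end.
TRBV13-3 with TRBJ2-7: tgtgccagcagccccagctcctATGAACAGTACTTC
TRBV10 with TRBJ1-1: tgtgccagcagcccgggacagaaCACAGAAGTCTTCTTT
TRBV13-2 with TRBJ1-6: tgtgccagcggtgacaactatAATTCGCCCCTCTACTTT

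Genes of the receptor complex and of recombination were read in the same cells. Of 18 genes, 14 reached 100 UMIs. Cd5, which encodes a surface receptor that dampens TCR signals, was at 441 CPM in tumor Foxp3-positive and 210 CPM in tumor Foxp3-negative cells, a ratio of 2.10 (2.0 to 2.19), and Cd6, its relative, at 419 and 222 CPM, a ratio of 1.89 (1.80 to 1.98). These were the 2 members higher by 1.5-fold in the tumor and 0 were lower, with a median ratio of 1.13 over the list and 1.10 over all genes tested, of which 36.1% passed the fold. In the normal library Cd5 alone was higher (381 against 245 CPM, 1.56, 1.39 to 1.74; background 22.5%). Between Foxp3-negative cells 0 of the 14 passed the fold (background 6.51%). Between Foxp3-positive cells Trbc1, the constant gene of the TRBJ1 cluster, was lower in the tumor at 91.1 against 149 CPM (0.612, 0.506 to 0.744; background 37.4%), and Trbc2, that of the TRBJ2 cluster, stood at 215 against 309 CPM (0.696). Scaling by the median of ratios kept Cd5 (1.82) and Cd6 (1.64) past the fold in the tumor and Trbc1 (0.531) between Foxp3-positive cells. It ended the call of Cd5 in the normal library, and it added Trbc2 (0.604) between Foxp3-positive cells and Trbc2 (0.662) and Lat (0.603) as lower between the tumor classes. The share of distinct sequences from the TRBJ1 cluster was 33.2% and 31.7% in these classes. The CD3 subunit genes Cd3d, Cd3e and Cd3g had ratios between 0.945 and 1.14 there, and Cd247, the zeta chain, 0.811. Trac, the alpha constant gene, stood at 1.46, Cd4 at 1.17, Ptprc, a phosphatase of T cells, at 0.883, and the signalling genes Lck, Zap70 and Lat at 0.982, 1.31 and 0.847. Of the recombination genes Rag1 had at most 1 UMI in a class and Rag2 had 0. Dntt gave 35 UMIs in tumor and 71 in normal Foxp3-negative cells (0.520, 0.337 to 0.790), and Ptcra, the surrogate alpha chain of thymocytes, gave 1 and 10, all under the minimum of 100.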

How the data were processed

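Gene expression and TCR libraries of 1 tumor and 1 normal lung suspension were used. The authors deposited unnormalised UMI counts for each gene and barcode, made with Cell Ranger on mm10 per the submitters' processing notes, version 3.1.0 per the file headers. The deposited contig tables gave chain, V and J label, CDR3 and UMI counts per the file headers, and the reference of the receptor assembler is not given in the sources used here.

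Cells with fewer than 500 genes or at least 10% mitochondrial UMIs (120 tumor, 61 normal) and, as the treatment of doublets, cells exceeding 2 productive alpha chains or 1 productive beta chain (533 and 602) were left out, which kept 7135 and 7082 cells. No doublet caller was run. Distinct CDR3 nucleotide sequences were counted per Foxp3 class, and the 23 tumor and 25 normal sequences with more than 1 V label counted under the label of most cells. Shares carry Clopper-Pearson intervals, ratios exact conditional intervals and pairs exact Poisson intervals. The limit of a share of 0 is 3 counts of the total. A V-J expectation is the product of the class's V and J shares times its total, with TRBV19 included. UMIs were summed per class and scaled to CPM.

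Named segments were the 5 V and 3 J most and the least used in each library and up to 5 V and 3 J at each end past 1.5-fold in each comparison, with at least 20 sequences in the higher class. Named pairs were the 5 highest and 5 lowest ratios with at least 20 expected sequences in Foxp3-negative cells, and, chosen later, at least 5 in tumor Foxp3-positive cells. The members and lists were chosen with earlier results of these data known. Alternatives were the cell filter, counting by cells, a contig minimum of 3 UMIs, a Foxp3 minimum of 2 UMIs, thinning to 2417 UMIs, TRBV19 left out of totals, cells with 2 beta chains kept, V, J and sequence as the unit, sequences in more than 1 class or invariant alpha chains left out, cells with both chains, scaling and a minimum of 20 UMIs for genes. Merging the joint label, V from gene expression (cells with at least 3 Trbv UMIs, 80% or more from 1 gene), removal of 1-base neighbours and removal of TRBV3 were chosen after seeing the data. Scripts ran in Python 3.11.15 with numpy 2.4.6, pandas 2.3.3, scipy 1.17.1, statsmodels 0.14.6 and matplotlib 3.10.9 and were tested on simulated data.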

Additional observations from a re-analysis of the deposited data

How the results depend on the processing

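Of 536 values recomputed under the alternatives, 512 kept their direction and stayed within the spread allowed (the interval of a value, 1.5 times for a count), 21 moved and 3 reversed. Single segments came inside 1.5-fold while within that spread: with no cell filter TRBV13-1 (0.688) and TRBV29 (0.852) between the tumor classes, TRBV1 (0.870) between the normal classes, and TRBV1 (1.38) and TRBV12-2 (1.33) between Foxp3-positive cells, and with Foxp3 read at 2 UMIs TRBV23 between the tumor (0.704) and normal (0.915) classes. Usage between tumor Foxp3-positive and Foxp3-negative cells kept between 6 and 10 V labels past 1.5-fold, with ratios from 2.46 to 3.47 for TRBV12-2, 0.379 to 0.559 for TRBV31, 0.283 to 0.418 for TRBV10, 0.395 to 0.688 for TRBV13-1 and 0.470 to 0.577 for TRBJ2-2. TRBV3 with TRBJ2-1 stayed between 2.89 and 4.05 times expectation in tumor Foxp3-positive cells.

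Between Foxp3-positive cells of the libraries the 2 V labels called became 1 with no cell filter, with cells of 2 beta chains kept, and with Foxp3 read after thinning, and 3 with TRBV19 left out of totals, where the joint label was added at 1.697. The 1 J segment called there became 3 with no cell filter or with 2 beta chains kept, and 2 with cells as the unit, contigs of at least 3 UMIs, TRBV19 left out of totals, or sequences in more than 1 class left out. Between Foxp3-negative cells 0 V labels became 1 with no cell filter, with 2 beta chains kept, and with V read from gene expression. The 1 J segment called between the tumor classes became 2 with no cell filter, 2 beta chains kept, cells as the unit or thinning. Cramér's V of tumor Foxp3-positive cells rose from 0.112 over the described segments, or 0.132 over all V labels, to 0.178 with cells as the unit. Of the receptor complex and recombination genes, scaling by median of ratios gave 2 instead of 1 past the fold between Foxp3-positive cells, 4 instead of 2 between the tumor classes and 0 instead of 1 between the normal classes, and a minimum of 20 UMIs gave 1 instead of 0 between Foxp3-negative cells and 3 instead of 2 between the tumor classes, Dntt being added on 2 and 35 UMIs. That scaling shifted log2 ratios by -0.20, -0.03, -0.20 and -0.06 in tumor against normal Foxp3-positive, tumor against normal Foxp3-negative, and the tumor and normal Foxp3 comparisons.

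The ratio of TRBV13-2 between the tumor classes reversed to 1.21 with the joint label merged into it. TRBV3 with TRBJ2-1 passed from just below to just above expectation after thinning, at 1.01 in tumor and 1.03 in normal Foxp3-negative cells. The cause of these changes was not tested. No paired analysis was possible because each tissue has 1 library per assay.

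With 183 sequences, shares in normal Foxp3-positive cells below 1.64% could not be read from 0, against 0.401% in tumor Foxp3-positive cells. Library and tissue cannot be told apart, and V labels rest on the assembler's reference, which is not given in the sources used here.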

Other observations

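Beta contigs that were full length and not productive, such as those out of frame, showed another order of V labels than productive ones. They were counted once per cell, V and J label in 1098 tumor and 1169 normal cells. TRBV23 held 11.02% of the tumor and 8.81% of the normal ones, against 0.914% and 0.991% of distinct productive sequences, which gives ratios of 12.1 and 8.89. TRBV10 held 10.7% and 11.8%, at ratios of 2.89 and 3.09, and TRBV12-1 held 5.56% and 5.73%, at ratios of 4.29 and 5.43. TRBV3, the leading productive label, held 3.64% and 3.85%, at ratios of 0.350 and 0.376. The order of the V labels was alike in both libraries, with a Spearman correlation of 0.93 across labels, which share the assay and its reference.

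Position along the locus and usage ran in opposite directions among the 18 V labels upstream of the D segments, with TRBV10 left out and the joint label added to TRBV13-2. Spearman's rho between start coordinate and share was -0.62 in tumor Foxp3-negative, -0.61 in normal Foxp3-negative and -0.67 in tumor Foxp3-positive cells. TRBV31, on the far side of the J clusters, was not included and is the second most used label in both libraries. The TRBJ2 share of a V label ranged from 52.9% for TRBV23, on 51 sequences, to 74.6% for TRBV12-2 in tumor Foxp3-negative cells. In normal Foxp3-negative cells it ranged from 56.8% for TRBV20 to 84.6% for TRBV30, on 13 sequences, and TRBV23 was at 80%, on 60. TRBV31 stood at 60.6% and 59.7%, and TRBV15 at 70.0% and 71.6%. These labels were chosen after their values were seen.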
